A study of Mus musculus with 6 samples.

Results

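The genes described here encode the proteins that wrap and order DNA in male germ cells: the linker and core histones and their testis variants, the high mobility group (HMG) proteins, and 6 factors that handle histones or their mRNAs (Slbp, Brdt, Chd5, Nasp, Hat1 and Rnf8). They were chosen by symbol, a rule that uses no measured value, though with earlier results of these data known. The rule found 51 contigs (annotated transcripts to which reads were aligned) of 41 genes among 12114 contigs, of which 11517 are annotated transcripts and 597 are repeat elements. Poly(A) tails and transcript accumulation were measured by nanopore direct RNA sequencing in pachytene/diplotene (P/D) spermatocytes and in round spermatids (RS). Both cell types came from adult C57BL/6J/B6 males with no treatment, and were sorted from testis suspensions by Hoechst fluorescence and light scatter, with propidium iodide used to leave out dead cells. By the study's microscopy the gates enriched for these cells without purifying them, and the P/D gate held a larger part of other cells than the RS gate. There were 3 samples of each cell type, and each sample was mRNA pooled from 3 mice. The study took all its germ cell types from the same mice, 9 in all for this comparison, and does not say whether pools of equal number hold the same 3. All P/D pools were multiplexed in a single sequencing library and all RS pools in a further one, and a difference between cell types cannot be told apart from one between libraries.

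Spermatids replace almost all of their histones, first with testis variants and transition proteins and then with protamines, while transcription declines, so many of the mRNAs needed late are made early and stored. Canonical histone mRNAs of dividing cells are unusual in that they end in a conserved stem-loop, bound by the stem-loop binding protein Slbp, and carry no poly(A) tail. Replacement histones such as H3.3 and H2A.Z are instead encoded by ordinary polyadenylated mRNAs with introns in many cases, and can be made outside S phase.

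Oligo(dT)-selected RNA holds only polyadenylated molecules, so the 3′ ends of the replication-dependent members are shown first, as annotated. The core letters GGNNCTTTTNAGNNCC of the stem-loop, searched on the sense strand, were present in 124 of 141767 annotated mouse transcripts (0.0875%) and in 4 members. In the windows that follow the match is in capitals, with 6 flanking bases on each side. They lie in the 3′ UTR of single-exon genes (GRCm38) at chr3:96246026-96246053 on the plus strand for H2ac18, chr3:96239778-96239805 on the minus strand for H2ac19, chr13:23761884-23761911 on the minus strand for H3c1 and chr9:44335234-44335261 on the plus strand for H2ax.
H2ac18: taaaaaGGCTCTTTTCAGAGCCacccac
H2ac19: taaaaaGGCTCTTTTCAGAGCCacccac
H3c1: accaaaGGCTCTTTTCAGAGCCacacac
H2ax: cacaaaGGCCCTTTTAAGGGCCaccacc

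The match ended 35 bases before the annotated transcript end in H2ac18 and H2ac19 and 37 bases before it in H3c1. In H2ax it lay 822 bases before the end, within a transcript of 1384 bases whose last 50 bases hold a poly(A) signal. The annotated transcript of H2ac21 has only 3 bases after its last annotated coding base, so a stem-loop in its 3′ UTR could not be found. The annotated transcripts of H4c1, H2bc22, H2bc21 and H2ac21 held no match. Of these, H4c1, H2bc22 and H2bc21 end in a window with the canonical signal, shown with the signal in capitals as the last 30 bases of each transcript. Those bases lie at chr13:23760692-23760721 (minus strand), chr13:21789184-21789213 (plus strand) and chr3:96223709-96223738 (plus strand).
H4c1: aAATAAAccttgagtgcctttggagaattg
H2bc22: ttataaaAATAAAggtttcaatctatccca
H2bc21: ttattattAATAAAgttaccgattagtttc

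Either AATAAA or ATTAAA, searched on the sense strand, was present in the last 50 bases of 35 of the 51 member transcripts, AATAAA in 22 and ATTAAA in 13. All 7 H2al1 copies that are coding, and their relative H2al2a, have ATTAAA, and their 3′ ends are nearly alike, as the last 30 bases of 3 of them show. They lie at chrX:11318735-11318764 (plus strand), chrX:11312398-11312427 (plus strand) and chr2:17996417-17996446 (minus strand).
H2al1g: gctATTAAAgcatctagatcgaacccattg
H2al1e: tatgctATTAAAgcatctagatcgaaccca
H2al2a: ctATTAAAgcatttacatcgaacccattga

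Each sample held 244004 to 474688 reads. The members took 0.672 to 0.688% of the reads in P/D spermatocytes and 0.922 to 0.955% in RS, 16428 reads in all. The labels were checked against marker genes. The 8 RS markers made up 0.0350 to 0.0454% of P/D reads and 0.252 to 0.266% of RS reads, and 8 elongating spermatid genes made up 0.174 to 0.236% and 2.25 to 2.76%. The 8 P/D markers took 0.322 to 0.344% of P/D reads and 0.164 to 0.171% of RS reads. Of 14 contigs of this list tested for counts with edgeR, 7 were lower in RS and 3 higher (adjusted p below 0.05). The shares of all contigs tested were 30.6% and 32.7%. Of 6 leptotene and zygotene markers 2 were found, with 0.0172 to 0.0280% of P/D reads and 0.00786 to 0.0160% of RS reads. None of 6 spermatogonial markers was found, and Sertoli cell markers had 0 to 4 reads and Leydig cell markers 1 to 7 reads a sample. The mean P/D share was thus 16.1% of the RS share for the RS list and 7.99% for the elongating list.

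Few member mRNAs were called longer in RS, although longer tails were called for most contigs of these samples. Of 37 member contigs (31 genes) in the limma fit to replicate mean tails, 8 had longer tails in RS, 1 had shorter tails and 28 were not called at an adjusted p of 0.05. Over all 6989 contigs tested the shares were 54.2% longer and 1.69% shorter. The median difference, RS minus P/D, was 9.87 nt for the members and 37.4 nt for all contigs. The median tail of the members was 126 nt in P/D spermatocytes, against 115 nt over all contigs tested, and 148 nt in RS, against 159 nt. The difference was above 0 for 24 of the 37 members, beside 84.5% of all contigs tested. In RS every replicate mean lay above every P/D mean for 9 of the 32 members in the fit with a mean in all 6 samples, and below for 3, beside 63.6% and 2.72% of all contigs. Some members entered the fit through 1 cell type alone, with few reads behind the means of the other. With 10 reads required in 2 replicates of both cell types, 18 members remained, 6 longer (33.3%) and 1 shorter (5.56%). The shorter one was H2az2, not called in the main fit. The contig called shorter in the main fit, Slbp ENSMUST00000057551, did not reach this minimum. Of all 3889 contigs tested in that way, 76.0% were longer and 2.37% shorter.

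**Figure D1:**
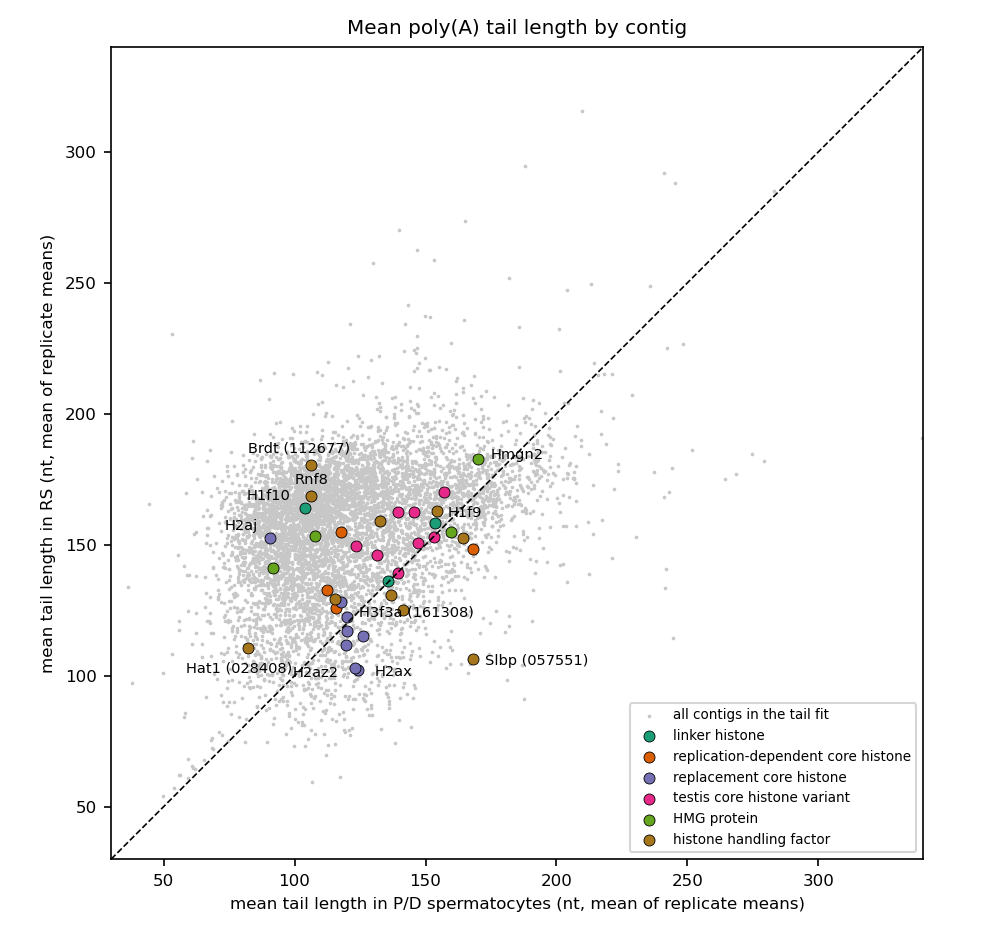
Mean tail length in P/D spermatocytes (x axis, nt) against RS (y axis, nt) for every contig in the tail fit (grey) and for the 37 member contigs, coloured by role; each point is the mean of replicate means, and the dashed line marks equal lengths. Most grey points lie well above the line, and most replacement core histone points lie near or below it, between 102 and 128 nt in RS, with H2aj at 152 nt as the exception.

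At the level of single reads the study distinguishes ~60-nt tails (30 to 120 nt) from ~150-nt tails (120 to 210 nt). Among member reads, ~150-nt tails made up 38.7, 36.9 and 37.3% of the 3 P/D samples and 58.4, 55.8 and 59.5% of the 3 RS samples. Among the reads of every contig they made up 30.3, 30.02 and 28.5% of P/D samples and 67.8, 66.4 and 68.3% of RS samples. The members therefore had a larger share of ~150-nt tails than the whole in each P/D sample and a smaller share in each RS sample. Their mean share rose by 20.3 percentage points, beside 37.9 points for every contig. Tails of 210 nt or more went the other way among members, with a P/D mean of 10.1% and an RS mean of 6.08%, while the means over all reads were 6.41 and 9.94%. The pooled values weight genes by their reads, and H3f3a contributed most.

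**Figure D2:**
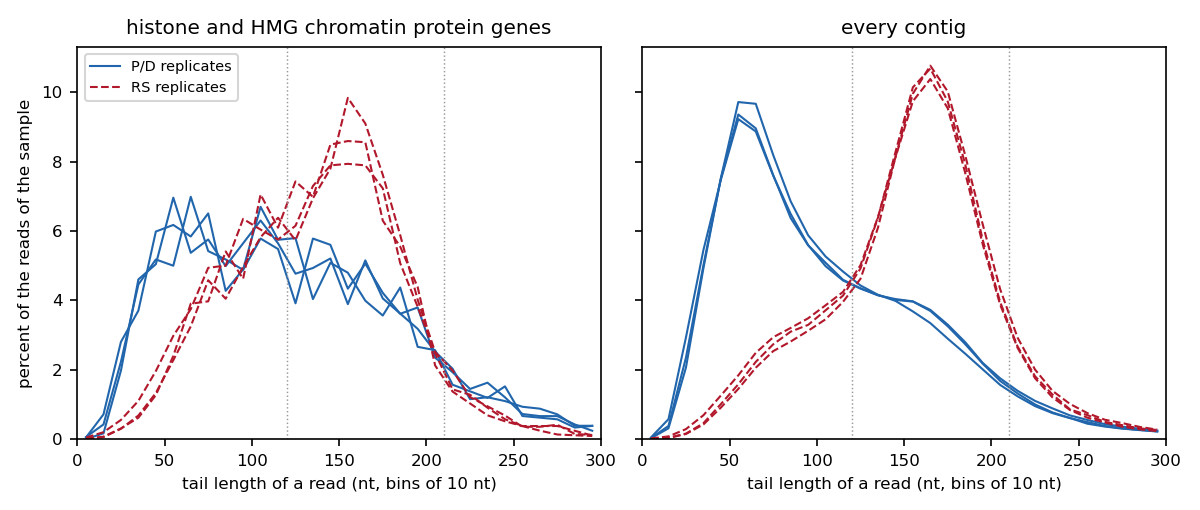
Distribution of tail lengths of single reads (x axis, nt, bins of 10 nt; y axis, percent of the reads of a sample) for the members (left) and for every contig (right), with 1 line per sample, P/D solid and RS dashed; dotted lines mark 120 and 210 nt. The P/D lines of the members are broad and lack the single peak below 100 nt that the lines of every contig show, and the RS lines of the members keep a shoulder below 120 nt.

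Of the 8 replacement core histone contigs in the tail fit, 1 was called longer and 7 were not called, and those 7 had RS means of 102 to 128 nt. Of all contigs tested, 54.2% were called longer and 1.69% shorter. H3f3a and H3f3b both encode H3.3, the H3 variant incorporated outside S phase. The main H3f3a contig (ENSMUST00000161308, chr1:180800832-180813632, minus strand) had mean tails of 114, 124 and 122 nt in P/D spermatocytes and 122, 119.6 and 126 nt in RS, each from 244 to 547 reads. The ranges overlapped, and the difference was 2.57 nt (SE 5.83, adjusted p = 0.732). Of all contigs tested, 11.7% had an RS mean below that of this contig. Its counts rose slightly, from 254, 266 and 244 to 360, 547 and 385 reads (log2 fold change 0.31, SE 0.11, adjusted p = 0.00925). A shorter H3f3a contig, ENSMUST00000081026 (888 bases), went from 6, 10 and 6 to 23, 33 and 29 reads (log2 fold change 1.51, SE 0.33, adjusted p = 0.000126), and its tails were not called (difference -3.12 nt, SE 9.62, adjusted p = 0.804).

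For the H3f3b contig with most reads (ENSMUST00000106454, chr11:116021912-116027962, minus strand) the means were 132, 126 and 120.1 nt in P/D spermatocytes and 115, 113 and 118 nt in RS. All RS values lay below all P/D values, but the difference of -10.8 nt (SE 5.87, adjusted p = 0.168) did not pass the limma threshold. The other H3f3b contig, ENSMUST00000016703, went from a mean of 119 ± 8.14 nt (SD, n = 3) to 112 ± 1.46 nt (difference -7.80 nt, SE 6.36, adjusted p = 0.342). With reads of both contigs pooled, the means were 128, 118 and 123 nt in P/D spermatocytes and 113, 113 and 114 nt in RS, again without overlap (exact permutation test, two-sided, p = 0.1, the smallest that 3 against 3 allows). Weighting limma by reads, or testing only contigs with 20 reads in every sample, called ENSMUST00000106454 shorter. H3f3b ~150-nt tails made up 38.0, 36.6 and 40.3% of reads in P/D spermatocytes and 34.3, 34.2 and 38.9% in RS, and neither contig was called in counts (log2 fold changes -0.20 and -0.06).

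H2az1, which encodes the variant H2A.Z.1 found at promoters, fell in accumulation without a call in tail length. Its main contig (ENSMUST00000041045, chr3:137864487-137866922, plus strand) had 326, 417 and 435 reads in P/D spermatocytes and 157, 265 and 197 in RS. As CPM (reads of a contig per 1000000 reads of the sample) this was 1434 ± 147 against 536 ± 34.7 (SD, n = 3), with no overlap, and the edgeR log2 fold change was -1.37 (SE 0.11, adjusted p = 1.21e-13). Its tails averaged 120.5, 109 and 124 nt in P/D spermatocytes and 131, 119.8 and 134 nt in RS (difference 10.4 nt, SE 7.14, adjusted p = 0.263). On the log2 scale of tail length this contig was called longer, and blocking on replicate number left it without a call (SE 6.49, adjusted p = 0.249).

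H2ax encodes the H2A variant phosphorylated at double-strand breaks and over the silenced sex chromosomes of spermatocytes. It had 26, 28 and 25 reads in P/D spermatocytes and 7, 14 and 7 in RS, a log2 fold change of -1.92 (SE 0.31, adjusted p = 1.05e-06). Its tails of 127, 133 and 113 nt in P/D spermatocytes and 74.4, 104 and 128 nt in RS overlapped (adjusted p = 0.240). H2az2, the paralog of H2az1, had means of 128, 114 and 127 nt and then 94.7, 109 and 105 nt, with every RS value below every P/D value (difference -20.2 nt, SE 7.20, adjusted p = 0.0532), from 6 to 17 reads a sample. It was called shorter in 5 alternatives, among them medians in place of means (-41.1 nt, adjusted p = 0.00648) and the fit without P/D replicate 2 (-24.9 nt, adjusted p = 0.0284). It was not called in counts (log2 fold change -0.20, SE 0.37, adjusted p = 0.660).

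H2aj, an H2A variant gene with a polyadenylated mRNA, was the only replacement core histone contig called longer. It had 89.8, 92.9 and 89.5 nt in P/D spermatocytes and 138, 162 and 158 nt in RS, from 6 to 14 reads a sample, a difference of 61.7 nt (SE 7.99, adjusted p = 0.00117). The groups lay far apart. Its counts were too low for the edgeR filter, at 41.1 ± 11.9 and 22.7 ± 5.89 CPM (SD, n = 3).

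Several of these genes were among the most deeply read members, and were set beside contigs of like depth. Among all contigs with at least 50 reads in every sample, limma called 662 of 773 longer (85.6%) and 10 shorter (1.29%). The 6 member contigs with that depth, of H2ac18, H2az1, H3f3a, H3f3b (both contigs) and Nasp, gave 0 calls in either direction, and 0 at an unadjusted p of 0.05. Their differences ran from -10.8 to 10.4 nt with SEs of 5.23 to 7.14 nt. With the study's equal-variance test, unadjusted, 1 was longer (H2ac18) and 1 shorter (H3f3b, ENSMUST00000106454), and after adjustment H2ac18 alone was called. Weighting limma by reads, or requiring 20 reads in every sample, also called H2ac18 longer and this H3f3b contig shorter. On the log2 scale H2az1 alone was called, as longer. The missing calls do not show that tails were the same length in both cell types.

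**Figure D3:**
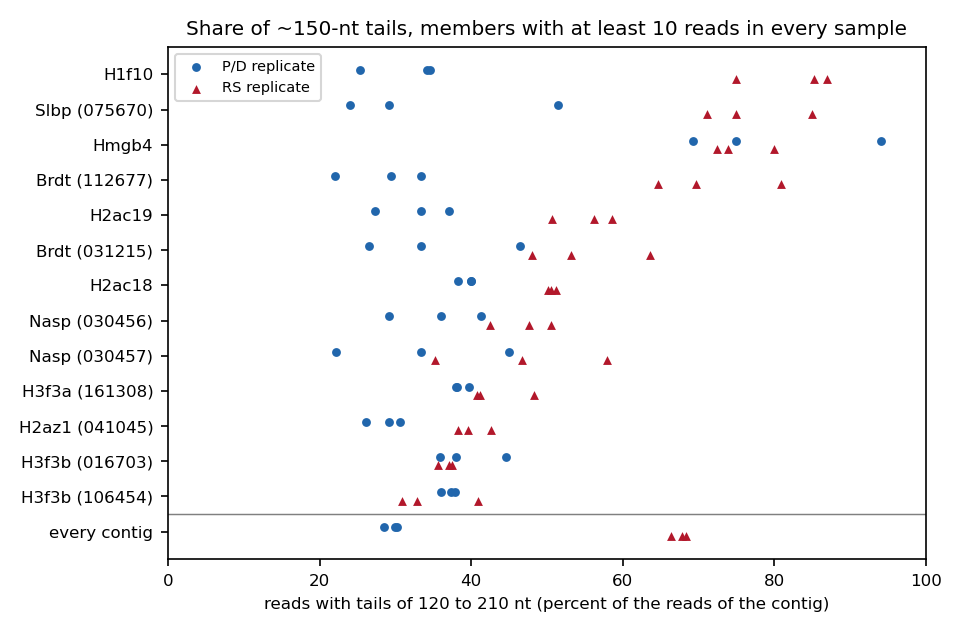
Share of reads with tails of 120 to 210 nt (x axis, percent) in each P/D (circles) and RS (triangles) replicate for the 13 member contigs that reached 10 reads in all 6 samples and, at the bottom, for every contig. H3f3b, H2az1 and H3f3a lie to the left of the RS values of every contig (66.4 to 68.3%), and H1f10, Slbp ENSMUST00000075670 and Hmgb4 lie at or to the right of them in all 3 RS samples.

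Replication-dependent core histone genes gave polyadenylated reads in both cell types, and all 3 contigs that entered the count fit rose in RS, beside 32.7% of all 6005 contigs tested. Of these, H2ac18 and H2ac19 are not separate measurements, and H2bc22 had few P/D reads and passed the filter through RS. Among the genes not tested, every RS CPM value lay below every P/D value for H2bc21, and above for H3c1 and H4c1. For non-overlap in CPM no share over all contigs is given. The direction for H2ac21 is not resolved, with 1, 4 and 2 reads in P/D spermatocytes and 1 read in each RS sample. Its CPM ratio of 3.26 in favour of P/D had an interval from 0.744 to 19.5 (counting error only). H2ac18 and H2ac19, neighbouring H2A genes on chromosome 3, are identical over all 528 aligned bases, which is the whole H2ac19 transcript, so reads cannot be assigned to one of them with certainty. H2ac18 had 214, 243 and 210 reads in P/D spermatocytes and 375, 449 and 437 in RS (log2 fold change 0.50, SE 0.11, adjusted p = 0.000176). H2ac19 had 27, 33 and 27 and then 48, 75 and 70 reads (log2 fold change 0.72, SE 0.21, adjusted p = 0.00300). Every RS CPM value lay above every P/D value for both genes.

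Tail lengths of H2ac18 were 113, 119 and 116 nt in P/D spermatocytes and 125, 126 and 126 nt in RS (difference 9.87 nt, SE 5.23, adjusted p = 0.159). For H2ac19 they were 104, 119 and 113 nt and then 136, 129.8 and 132 nt (difference 20.4 nt, SE 6.32, adjusted p = 0.0341). H2ac18 was called longer in 4 alternatives, among them weights by reads. The H2ac19 call was lost with the replicate number as a block (adjusted p = 0.0927) and without each of 5 single samples (adjusted p = 0.0560 to 0.103). Pooled over both genes, the tail means were 112, 119 and 115 nt in P/D spermatocytes and 126, 127 and 127 nt in RS (exact permutation test, two-sided, p = 0.1). All 3 RS values exceeded all 3 P/D values, by far less than the 37.4 nt median of all contigs, and ~150-nt tails made up 51.8, 50.6 and 51.3% of RS reads.

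H2bc22, an H2B gene whose annotated 2-exon transcript ends with the poly(A) signal shown earlier (chr13:21787461-21789213, plus strand), rose most in this role. It had 9, 18 and 4 reads in P/D spermatocytes and 96, 155 and 134 in RS (log2 fold change 3.19, SE 0.25, adjusted p = 2.40e-14). Whether its few P/D reads came from spermatids within the sort was not tested. Its tails were long in both groups of samples, at 184, 169.7 and 150.1 nt and then 153, 148 and 144 nt (difference -19.8 nt, SE 9.71, adjusted p = 0.133). The ranges overlapped, and the P/D mean stood above that of 92.5% of contigs tested. Weighting by reads, and leaving out P/D replicate 3, called it shorter.

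H4c1 had 1, 4 and 0 reads in P/D spermatocytes and 20, 28 and 10 in RS, and H3c1 had 2, 1 and 0 and then 8, 13 and 8. Neither passed the edgeR filter. The H3c1 CPM ratio was 6.92 in favour of RS (95% interval from 2.14 to 35.5, counting error only). H4c1 RS tails averaged 159.8, 140.5 and 164 nt, and 5 P/D reads do not allow a comparison (adjusted p = 0.217). H2bc21 moved in the opposite direction in reads, 9, 9 and 15 against 2, 5 and 1, and H2ac21 had 1 to 4 reads a sample, with 7 of its 10 reads also aligned to the neighbouring Bola1. Neither of these was tested.

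Linker histones moved in opposite directions. H1f7 (H1T2) and H1f9 (Hils1), both made in spermatids and needed or proposed for chromatin condensation, were among the members that rose most. H1f9 (chr11:94967593-94968456, plus strand) had 40, 33 and 8 reads in P/D spermatocytes and 355, 499 and 439 in RS (log2 fold change 3.56, SE 0.20, adjusted p = 1.01e-18). H1f7 had 6, 9 and 4 and then 93, 187 and 114 reads (log2 fold change 3.90, SE 0.26, adjusted p = 2.34e-16). Neither was called in tail length: H1f9 had 163, 155 and 143 nt and then 157, 156 and 161 nt, and H1f7 had 116, 133 and 158 nt and then 132, 133 and 142 nt. P/D replicate 3, with the fewest H1f9 reads, also had the lowest share of reads from both spermatid marker lists. H1f9 stood at 164, 108 and 29.5 CPM in the P/D samples. There the RS markers took 0.0434, 0.0454 and 0.0350% of reads, and the elongating spermatid markers 0.236, 0.202 and 0.174%. Whether the H1f9 and marker values are linked was not tested.

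H1f10 (H1X), a replacement linker histone expressed in somatic cells as well, moved the other way in accumulation and lengthened its tails. It had 52, 63 and 41 reads in P/D spermatocytes and 23, 32 and 27 in RS (log2 fold change -1.35, SE 0.22, adjusted p = 9.87e-07). Its tails were 113, 97.1 and 103 nt and then 166, 160.1 and 166 nt, a difference of 59.9 nt (SE 6.45, adjusted p = 0.000658). The groups did not overlap in either measure. ~150-nt tails made up 31.4% of its reads on average in P/D spermatocytes and 82.4% in RS.

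Testis core histone variants rose together. They are made in spermatids, and H2al2a encodes a short H2A variant that opens nucleosomes and lets transition proteins load. All 9 contigs in the count fit were higher in RS, with log2 fold changes of 3.06 to 4.43, beside 32.7% of all contigs tested. These contigs had few P/D reads and passed the read filter through RS, which favours a call of higher. None of them reached 10 reads in every sample. Of 8 contigs in the limma tail fit 0 were called, also at an unadjusted p of 0.05 and with the study's equal-variance test, and H2ap was called longer without P/D replicate 2 (39.4 nt, adjusted p = 0.0119). Longer tails were called for 54.2% of all contigs tested, but for 7.99% of the 651 contigs that rose by a log2 fold change of 3 or more. Summed over all 12 contigs, they took 115, 111 and 66.3 CPM in P/D spermatocytes and 1080.0, 1053 and 1149 in RS. The P/D mean was 8.90% of the RS mean, while the elongating spermatid markers stood at 7.99% and the RS markers at 16.1%. Whether P/D reads of these genes came from spermatids within the sort was not tested, and fewer cells of a type and less RNA per cell cannot be told apart in bulk samples.

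H2al2a (chr2:17996417-17996958, minus strand) had 6, 3 and 6 reads in P/D spermatocytes and 74, 106 and 77 in RS (log2 fold change 3.64, SE 0.29, adjusted p = 5.68e-14). Its tails were 139, 147 and 133 nt and then 143, 136 and 139 nt, with means of 139.5 and 139 nt. H2bl1, an H2B variant gene, had 7, 10 and 4 and then 59, 96 and 93 reads (log2 fold change 3.11, SE 0.28, adjusted p = 1.93e-12) and tails of 154, 172 and 145 nt and then 174, 163 and 173 nt. RS and P/D tail ranges overlapped for both.

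H2ap and H2al3 are adjacent X-linked H2A variant genes. H2ap had 7, 7 and 2 reads in P/D spermatocytes and 45, 93 and 77 in RS (log2 fold change 3.28, SE 0.32, adjusted p = 1.02e-11), with tails of 133, 173 and 113 nt and then 165, 157 and 165 nt. H2al3 had 1, 3 and 2 and then 26, 29 and 21 reads (log2 fold change 3.17, SE 0.45, adjusted p = 9.41e-08), with tails of 170.4, 123 and 77.0 nt and then 153, 133 and 163 nt. The wide P/D spread rests on means of 1 to 7 reads.

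The 7 coding H2al1 copies are 96.0 to 99.8% identical to each other, so their reads can be split between copies and single copies are uncertain. Pooled, they gave 7, 11 and 4 reads in P/D spermatocytes and 137, 171 and 139 in RS, or 26.5 ± 10.8 and 394 ± 36.4 CPM (SD, n = 3), a ratio of 14.9 (exact permutation test, two-sided, p = 0.1). Their pooled tails averaged 124, 148 and 159 nt and then 153, 142 and 157 nt (exact permutation p = 0.7). RS tails of ~150 nt made up 74.5, 69.6 and 77.0% of reads.

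As annotated, H2al1g had most reads, with 4, 7 and 2 in P/D spermatocytes and 48, 57 and 44 in RS (log2 fold change 3.06, SE 0.34, adjusted p = 3.23e-10). H2al1a had 1, 1 and 0 and then 12, 26 and 19, H2al1e 1, 1 and 0 and then 20, 20 and 17, H2al1m 0, 2 and 0 and then 20, 27 and 20, and H2al1n 1, 0 and 1 and then 15, 20 and 15. Each of these 4 was called higher, and the CPM ratios were 17.9 to 24.0, with lower 95% counting limits of 4.70 to 6.38. H2al1k had 0, 0 and 1 and then 11, 9 and 13 reads and H2al1b 0, 0 and 0 and then 11, 12 and 11, neither of which passed the edgeR filter. H2al1b was at least 8.11-fold higher in RS and the pseudogene H2al1r-ps, with 8 RS reads, at least 1.91-fold higher, against a floor of 3 counts over the P/D group.

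**Figure D4:**
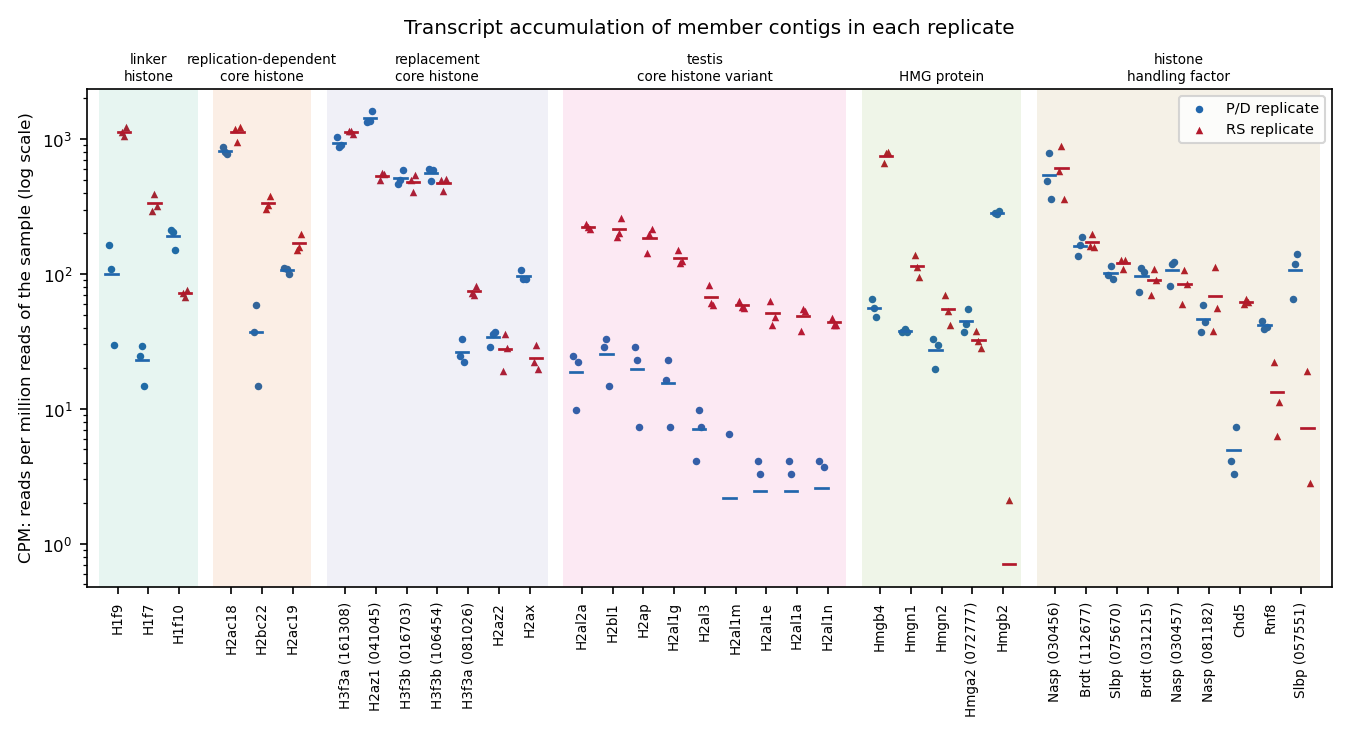
Transcript accumulation (y axis, CPM, log scale) in each sample for the 36 member contigs in the count fit, grouped by role, with P/D replicates as circles, RS replicates as triangles and the mean of 3 replicates as a bar; replicates without reads are not drawn. All testis core histone variants, H1f7, H1f9, Hmgb4 and Chd5 have RS values above all P/D values, and Hmgb2, H2az1, H2ax, H1f10, Rnf8 and Slbp ENSMUST00000057551 have RS values below.

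HMG proteins bend or loosen chromatin fibres, and their genes moved in both directions. Hmgb2, a DNA-bending protein abundant in proliferating and meiotic cells, had the lowest log2 fold change of the members tested: 69, 85 and 80 reads in P/D spermatocytes were followed by 0, 1 and 0 in RS. The CPM ratio was 327 (95% counting interval 58.1 to 12967; edgeR adjusted p = 1.18e-18). Its P/D tails averaged 142, 139.9 and 124 nt, and the lone RS read allows no tail comparison.

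Hmgb4, a testis member of the family encoded by a single exon (chr4:128260212-128260957, minus strand), rose from 16, 17 and 13 reads to 209, 373 and 283 (log2 fold change 3.78, SE 0.18, adjusted p = 1.79e-20). Tails were long in both groups of samples, 160.2, 179.8 and 139 nt and then 158, 148 and 158 nt (difference -4.87 nt, SE 11.1, adjusted p = 0.733). This contig had 79.4% ~150-nt tails on average in the P/D samples, and 75.4% in RS. Its mean was 56.4 CPM in the P/D samples and 747 in RS. Whether its P/D reads came from spermatids within the sort was not tested. Hmgb1, the widely expressed family member, had 5 to 12 reads a sample and was tested in neither fit. Hmgb1-rs17, annotated as a pseudogene, had 1, 0 and 0 and then 10, 20 and 13 reads, a ratio of 30.8 (95% counting interval 5.24 to 1244), and it is 95.6% identical to Hmgb1 over 850 aligned bases. No read of either contig was also aligned to another contig. This does not show which gene a read came from, since the identical H2ac18 and H2ac19 shared no read either.

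The nucleosome-binding proteins Hmgn1 and Hmgn2 both gained reads. Hmgn1 had 9, 12 and 10 reads and then 44, 53 and 34 (log2 fold change 1.64, SE 0.28, adjusted p = 2.86e-06), and tails of 115, 56.6 and 104 nt and then 144, 142 and 138 nt (difference 49.6 nt, SE 15.3, adjusted p = 0.0337). This tail call was lost in 5 of the alternatives, the study's equal-variance test and the fit without any single RS sample among them. Hmgn2 had 8, 6 and 8 and then 22, 25 and 15 reads (log2 fold change 1.05, SE 0.36, adjusted p = 0.00961), a call lost with DESeq2 and without P/D replicate 2. Its tails ranged from 112 to 257 nt in P/D spermatocytes and were 190.1, 165 and 193 nt in RS (difference 12.6 nt, SE 36.9, adjusted p = 0.793). P/D replicate 3, which held the 257 nt mean, decided this value, since without it the contig was called longer (56.1 nt, adjusted p = 0.0163), while without P/D replicate 1 or 2 the difference was below 0 and not called.

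Hmga2, an AT-hook protein of growing cells, was not called in counts (9, 13 and 15 reads, then 12, 15 and 10, log2 fold change -0.43, SE 0.34, adjusted p = 0.274). Tails of its main contig were 101, 97.3 and 125 nt and then 159, 131 and 169 nt, without overlap (difference 45.4 nt, SE 12.7, adjusted p = 0.0234). The call was lost in 5 alternatives, 4 of them fits without 1 sample, and 16 reads of this contig were also aligned to a repeat element.

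**Figure D5:**
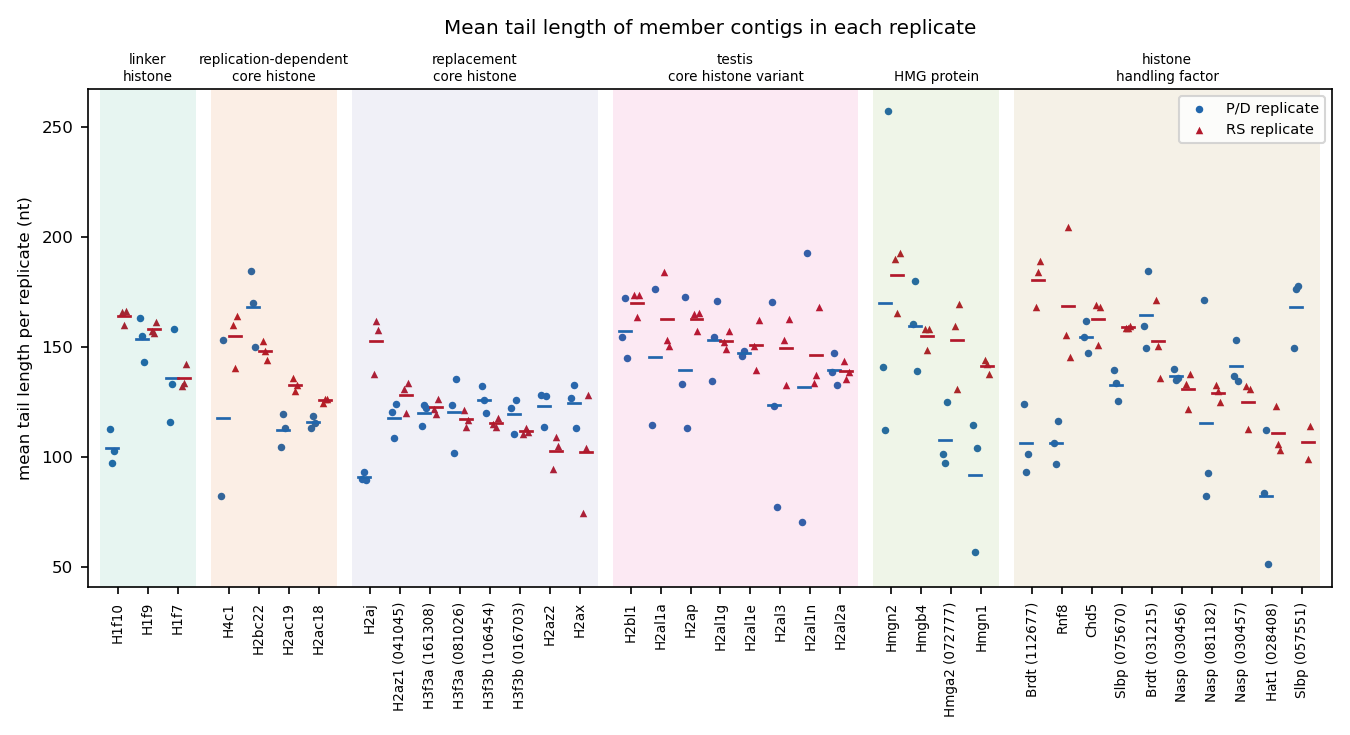
Mean tail length (y axis, nt) of the 37 member contigs in the tail fit in each P/D (circles) and RS (triangles) replicate, grouped by role, with the mean of replicates as a bar. H1f10, H2aj, Hmgn1, Hmga2, Rnf8, Brdt ENSMUST00000112677, Slbp ENSMUST00000075670 and H2ac19 have RS values above all P/D values and were called longer, and Slbp ENSMUST00000057551 was called shorter.

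Among the histone handling factors, transcripts of the same gene received different calls for Brdt and Slbp. Brdt is a testis bromodomain protein that binds acetylated histones and is required for their removal. The short contig ENSMUST00000112677 (7 exons, chr5:107331175-107350741, plus strand) had tails of 124, 93.1 and 101 nt in P/D spermatocytes and 168, 184 and 189 nt in RS. This was the largest increase of any member contig tested (74.2 nt, SE 10.4, adjusted p = 0.00156). The full-length contig ENSMUST00000031215 (19 exons, chr5:107331159-107387058) had 159, 149 and 184 nt and then 172, 150.3 and 136 nt (difference -11.8 nt, SE 12.9, adjusted p = 0.473).

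Tails of the short Brdt contig minus those of the long one were -35.1, -56.2 and -83.3 nt in P/D spermatocytes and -3.34, 33.6 and 53.2 nt in RS. The groups did not overlap (exact permutation test, two-sided, p = 0.1; adjusted over 8 pairs of contigs, p = 0.8). In accumulation the groups overlapped, and the short contig made up 64.7, 59.5 and 64.6% of Brdt reads and then 69.9, 64.4 and 63.6% (exact p = 0.6). Neither contig was called in counts, with log2 fold changes of 0.14 and -0.03.

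Slbp, whose product binds the stem-loop shown earlier, lost reads of 1 transcript in RS. The longer transcript ENSMUST00000057551 (1906 bases, chr5:33640055-33652574, minus strand) went from 16, 36 and 38 reads to 0, 9 and 1 (log2 fold change -3.55, SE 0.45, adjusted p = 6.17e-09). The shorter ENSMUST00000075670 (1027 bases, chr5:33634952-33652345, minus strand), with its own 3′ end, had 24, 35 and 25 and then 40, 52 and 45 reads (log2 fold change 0.28, SE 0.22, adjusted p = 0.275). Its share of Slbp reads was 60, 49.3 and 39.7% in P/D spermatocytes and 100, 85.2 and 97.8% in RS (exact permutation test, two-sided, p = 0.1; adjusted over 9 pairs, p = 0.3).

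Tails of the shorter transcript were 139.7, 133 and 125 nt and then 159, 159 and 159.7 nt (difference 26.2 nt, SE 6.07, adjusted p = 0.0114), with the RS values within a narrow band. Tails of the longer one were 149.7, 177 and 178 nt in P/D spermatocytes and 99.0 and 114 nt in the RS samples that had reads. It was the only member called shorter (-61.4 nt, SE 11.8, adjusted p = 0.00826), on 9 and 1 RS reads, and without either of those samples it could not be fitted. Pooled over both transcripts, Slbp tails averaged 144, 155 and 157 nt and then 159, 149.98 and 159 nt.

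Rnf8, the ubiquitin ligase that marks histones at breaks and on the sex chromosomes, had 11, 12 and 11 reads and then 7, 3 and 4 (log2 fold change -1.68, SE 0.41, adjusted p = 0.000530). Its tails were 106, 96.6 and 116 nt and then 155, 204 and 146 nt (difference 62.0 nt, SE 16.2, adjusted p = 0.0183), without overlap. The tail call was lost without P/D replicate 2 and with the adjusted equal-variance test, and 12 of its reads were also aligned to a repeat element. Chd5, a chromatin remodeller needed for histone removal, had 1, 1 and 2 and then 19, 31 and 22 reads (log2 fold change 3.63, SE 0.49, adjusted p = 2.74e-08), with P/D tails of 155, 162 and 147 nt from those few reads and RS tails of 169, 151 and 168 nt.

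Nasp, a chaperone of H3, H4 and linker histones, was called in neither measure. The main contig ENSMUST00000030456 had 120, 239 and 97 reads and then 182, 419 and 128 (log2 fold change 0.21, SE 0.19, adjusted p = 0.338), and tails of 139.9, 135 and 136 nt and then 133, 122 and 138 nt (difference -6.17 nt, SE 6.46, adjusted p = 0.455). The other 2 Nasp contigs had tail differences of -16.2 and 13.9 nt, also not called. Single samples bore on these results: the main contig was called higher without P/D replicate 2 (log2 fold change 0.58, adjusted p = 0.0182) and without RS replicate 3 (0.52, adjusted p = 0.0128). ENSMUST00000081182 was called higher without RS replicate 1 (0.96, adjusted p = 0.00858) or 3 (0.84, adjusted p = 0.0405) and longer without P/D replicate 1 (41.8 nt, adjusted p = 0.00452), and ENSMUST00000030457 was called shorter with weights by reads (-20.7 nt, adjusted p = 0.0368). The replicates numbered 2 had most Nasp reads in both cell types. Hat1, the acetyltransferase of newly made H4, had 2, 4 and 2 and then 13, 33 and 8 reads on its main contig, and tails of 83.6, 112 and 51.0 nt and then 123, 106 and 103 nt, which overlapped (difference 28.3 nt, adjusted p = 0.183). Without P/D replicate 2 the contig was called longer (43.3 nt, adjusted p = 0.0318).

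Members that did not reach the fits remain. The 14 contigs outside the tail fit were Hmgb1, Hmgb1-rs17, Hmgb2, H2ac21, H2bc21, H3c1, H2al1b, H2al1k, H2al1m, H2al1r-ps and the less read contigs of Hmga2, Hat1, H2az1 and H3f3a, and 9 of them had fewer than 10 reads in at least 2 replicates of both cell types. The less read H2az1 contig ENSMUST00000174561 had 3, 4 and 2 reads and then 3, 7 and 5, and that of H3f3a, ENSMUST00000162814, had 1, 0 and 0 and then 7, 5 and 6. Those of Hat1 and Hmga2 had 1 to 6 reads a sample.

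Over all members, 20 of the 36 contigs in the count fit (30 genes) were higher in RS and 6 lower, beside 32.7% and 30.6% of all contigs tested, and the median log2 fold change was 0.69 against -0.02. Among the 20, the 9 testis core histone variants and H2bc22 had few P/D reads and passed the filter through RS, which favours a call of higher. H2ac18 and H2ac19 are not separate measurements, and reads can be split between the H2al1 copies. With 10 counts required in every sample, 4 of 13 members were higher (30.8%), beside 24.6% of all contigs tested in that way. Tail and count calls were set side by side for the 34 members in both fits. Of 19 members higher in RS, 2 had longer tails (H2ac19 and Hmgn1), beside 36.6% of 1908 such contigs. Among members with a log2 fold change of 3 or more the number was 0 of 13, and among all such contigs 52 of 651 were longer (7.99%). Of the 10 members without a count call 3 had longer tails (Brdt ENSMUST00000112677, Slbp ENSMUST00000075670 and Hmga2), beside 71.2% of 2187 contigs. Of the 5 members lower in RS 2 had longer tails and 1 shorter, beside 63.3% longer of 1821 contigs. Of 11 members with a mean P/D tail of 110 to 130 nt 1 had longer tails, beside 61.1% of 1537 contigs with such tails.

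Other genes of the same processes were read from lists of known genes. The 5 sperm nuclear protein genes that follow the histones (Tnp1, Tnp2, Prm1, Prm2 and Prm3) had 6 contigs in both fits. All 6 were higher in RS and 2 had longer tails, and Tnp2, for example, rose from 95, 70 and 56 reads to 1164, 1855 and 1541 with mean tails of 132, 133 and 132 nt and then 139, 132 and 138 nt. Of 17 histone chaperone contigs 8 had longer tails and 0 shorter (9 and 0 at an unadjusted limma p of 0.05, median 42.2 nt), and of 16 in the count fit 8 were lower and 0 higher (9 and 1 at an unadjusted edgeR p of 0.05). Beside these stand 54.2% longer and 1.69% shorter, and 30.6% lower and 32.7% higher, of all contigs tested. Chaf1a, the large subunit of the replication-coupled H3-H4 chaperone, had tails of 88.3, 92.0 and 84.9 nt and then 177, 177 and 167 nt.

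Among histone modifiers tied to histone removal or sex-chromosome silencing, 9 of 28 contigs had longer tails and 0 shorter (11 and 0 at an unadjusted limma p of 0.05), and 7 of 24 were higher and 7 lower in counts. Psme4, the proteasome activator that degrades acetylated histones, had tails of 139.5, 124 and 133 nt and then 180.3, 177 and 186 nt. Of the contigs for histone mRNA processing, 4 of 6 had longer tails, 3 of them of Nelfe and 1 of Sympk, and 0 of 4 were called in counts by edgeR, with or without adjustment. Over all contigs tested, 54.2% were longer and 1.69% shorter in tail length, and 32.7% were higher and 30.6% lower in counts.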

How the data were processed

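The authors isolated poly(A) RNA, sequenced it with the direct RNA kit SQK-RNA002, aligned reads with minimap2 to GENCODE transcripts (GRCm38) and estimated tails with Nanopolish. The deposited tables hold raw read counts per contig and a tail length (nt) for each read. The tables hold the same reads: counts equalled tail rows for every contig and sample. Samples were grouped by labelled cell type. The study isolated its cell types from the same mice, but does not say that pools of equal number share mice, and its methods name unpaired tests, so the main fits had none and the replicate block was an alternative. Members and gene lists were chosen with earlier results of these data known.

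Mean tails per contig and sample were tested with limma 3.58.1 (lmFit, eBayes; contigs with 10 or more reads in 2 or more replicates of either cell type and with 2 or more replicate means in each) and counts with edgeR 4.0.16 (TMM, filterByExpr, quasi-likelihood test), with DESeq2 1.42.0 as an alternative, in R 4.3.3. Repeat elements were left out of the fits. Benjamini-Hochberg adjustment covered all contigs tested, with a threshold of 0.05. SEs of log2 fold changes were derived from the test's p and degrees of freedom. Fold changes are RS over P/D and tail differences RS minus P/D. Single values were compared by exact permutation tests, whose smallest p is 0.1. Intervals and floors are exact 95% values that cover counting error only. The scripts were tested on simulated data. Positions, exons and 3′ ends came from GENCODE vM21 and were checked against the RefSeq genome of the same build.

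The rule for values per sample was the contig with most reads of each gene, where it reached the same read minimum. Other contigs are given by counts and ranges. P-values measure the spread between these pools of mice. Alternatives were the test, the median, a log2 scale, weights, read minimums, tails of 10 to 300 nt, the block, sums per gene symbol, other normalization and filters, class bounds, and leaving out each replicate.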

Additional observations from a re-analysis of the deposited data

How the results depend on the processing

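Replicate numbers are shared by the groups, but deviations from the group means of same-numbered samples correlated only weakly over 1827 contigs (0.0278, 0.238 and 0.0701 for counts, and -0.0106, 0.0775 and 0.0159 for tails). Samples of different number gave -0.169 to 0.119 for counts and -0.0821 to 0.0635 for tails, and replicates numbered 2 alone correlated best with each other. With the replicate block, 7 members had longer and 1 shorter tails, and 20 were higher and 6 lower in counts, so the block ended 1 tail call, that of H2ac19. Calls were compared over the alternatives fitted to single contigs, which leaves out the sums per gene symbol. Of 9 tail calls, 5 held in every such alternative in which they could be fitted and 4 were lost in some (H2ac19, Hmga2, Hmgn1 and Rnf8). Both Slbp calls are among the 5, and they go in opposite directions. With reads of both Slbp transcripts pooled, the tail difference was 3.80 nt (exact permutation p = 0.5). Per gene symbol, 6 of 31 genes were longer and 1 shorter. Of 26 count calls, 25 held in all alternatives fitted to single contigs, and Hmgn2 was lost in 2. No called value changed sign.

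Requiring 20 reads in every sample left 10 contigs, 5 longer and 1 shorter (H3f3b ENSMUST00000106454), beside 87.1% and 2.46% of all 1827 contigs. Shorter tails numbered 3 with the study's equal-variance test unadjusted, 2 with medians, 4 with weights by reads and 2 with tails of 10 to 300 nt. Requiring 10 counts in every sample left 13 contigs, 4 higher and 2 lower (30.8% and 15.4%), beside 24.6% and 23.8% of all 3077 contigs, a smaller gap from all contigs in the share of higher calls than the 55.6% against 32.7% without this minimum. Leaving out each replicate gave 5 to 8 longer, 0 to 2 shorter, 21 to 24 higher and 6 to 7 lower, and 0 shorter without RS replicate 2 or 3, where the longer Slbp transcript could not be fitted. The pooled change in ~150-nt share of 20.3 percentage points was 17.9 with bounds of 120 to 180 nt, 17.1 with equal weight per contig, 22.6 without H3f3a and 19.5 to 21.3 without each replicate. Apart from fits with fewer samples or contigs, the cause of these shifts was not tested. Means from fewer than 10 reads, as for most P/D values of genes that rose strongly, limit what can be compared.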
